A study of Mus musculus with 7 samples.

Results

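Microglia sorted from glioma-bearing mice given an antibody to CTLA4 were compared with microglia from mice given control IgG. The genes described are all those with at least 1 FPKM (read counts scaled to transcript length and to library size) in 2 or more of the 4 libraries concerned, which was 12550 of the 24537 genes in the deposited table. Both groups were C57BL/6 mice that carried the 005 glioma, and both were taken at day 35 after implantation. The sort gate was intermediate CD45 with CX3CR1, the fractalkine receptor. There were 2 libraries from mice given IgG and 2 from mice given anti-CTLA4. A further 3 libraries, from mice given anti-CTLA4 together with depletion of CD4 T cells, are not compared here. They entered the estimate of the spread between replicates, the choice of genes tested and the alternative scales. The labels do not say that the libraries came from separate animals or from pooled ones, and each p-value is therefore set against library-to-library spread alone, part of which may be technical.

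The names of 1 group conflict within the deposited table. Sample sheet numbers in the names of the 2 anti-CTLA4 columns are 29 and 30, whereas their sample descriptions give 10 and 11. The counting command in the same header assigns 29 and 30 to libraries named MIFNGRKO1 and MIFNGRKO2. The columns of the other 5 libraries carry the number that their descriptions and the command give. The text therefore speaks of the libraries labelled anti-CTLA4, and each direction given here depends on that label. Ifngr1, the ligand-binding chain of the interferon-gamma receptor, was at 143 and 107 FPKM in the IgG libraries and at 204 and 271 FPKM in the libraries labelled anti-CTLA4. Both libraries labelled anti-CTLA4 thus had a higher Ifngr1 level than either IgG library. These values are sums over the exons of the gene and do not test for a deletion within it.

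CTLA4 is a receptor of T cells that binds CD80 and CD86 on antigen-presenting cells and restrains T cell activation, and antibodies to it are used to release that restraint. Microglia are the resident macrophages of the brain. In response to interferon-gamma, macrophages raise MHC class II molecules, which display peptides to CD4 T cells, through the transactivator CIITA. Microglia in healthy tissue carry a homeostatic programme that depends on TGF-beta and CSF1R signalling.

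The libraries held 84200000 to 93500000 reads by the depth that their low values imply, of which 49900000 to 56100000 fell in genes. The IgG libraries had 12350 and 12296 genes at 1 FPKM or more, and the libraries labelled anti-CTLA4 had 11591 and 11348. The 10 most abundant genes took 8.55% and 8.49% of the summed FPKM with IgG and 16.1% and 17.3% under the anti-CTLA4 label. Microglial markers were abundant in all 4 libraries. Cx3cr1, the receptor used in the sort, was at 334 and 259.9 FPKM with IgG and at 444 and 752 FPKM under the anti-CTLA4 label. The transcript of Ctla4 itself was at 0.166 and 0 FPKM and at 0.45 and 0.288 FPKM, below the minimum of 1 FPKM in every library.

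Genes of other cell types were present at levels that differed between the groups. The list of oligodendrocyte precursor genes, many of which glioma cells also express, summed to 1159 and 1825 against 281 and 99.5 FPKM (IgG replicates 1 and 2 against anti-CTLA4 replicates 1 and 2). The mural cell and fibroblast list summed to 459 and 513 against 1141 and 631 FPKM, and the erythroid list to 342 and 63.1 against 988 and 946 FPKM. The homeostatic microglia list summed to 14460.0 and 11820.0 against 19970.0 and 29740.0 FPKM. Precursor and tumour genes were thus lowest, and homeostatic, mural and erythroid genes highest, in the libraries labelled anti-CTLA4. In such bulk samples, fewer cells of a type and less RNA per cell cannot be told apart. The part of this difference in the results that follow was not tested.

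**Figure D1:**
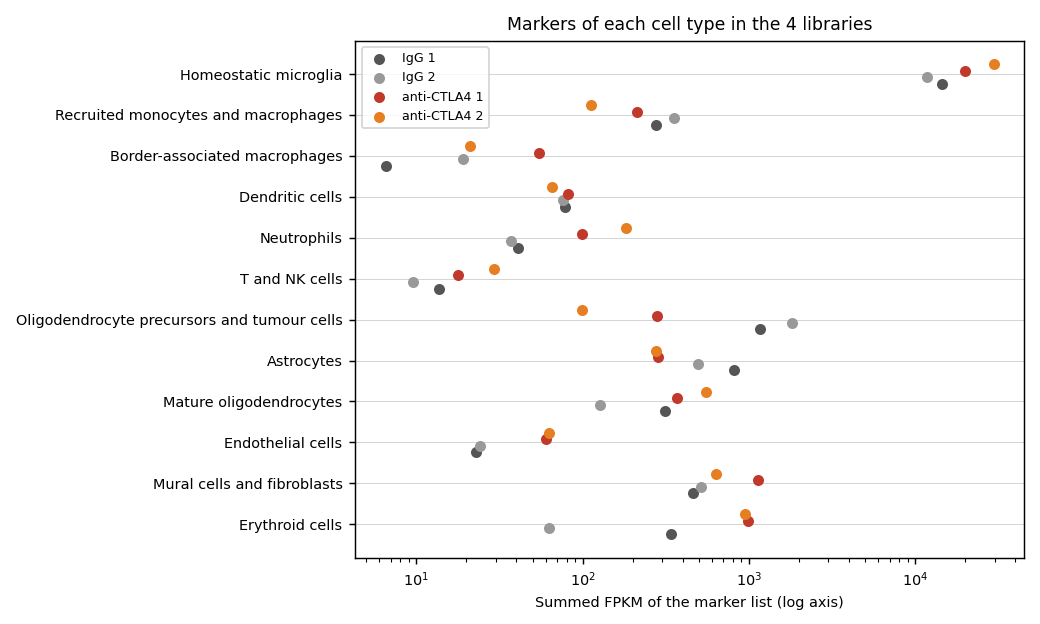
Summed FPKM of the genes of each cell type list, 1 dot per library, on a logarithmic axis; grey dots are IgG replicates and red and orange dots are the replicates labelled anti-CTLA4. Homeostatic microglial genes reached 14460 and 11820 summed FPKM with IgG against 19970 and 29740 under the anti-CTLA4 label, while precursor and tumour genes were at 1159 and 1825 against 281 and 99.5.

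Across the 12550 genes, limma on log2(FPKM + 1) called 1209 genes higher (9.63%) and 3714 genes lower (29.6%) in the libraries labelled anti-CTLA4 at an adjusted p under 0.05, which is 39.2% in all. The median log2 fold change was -0.31, so a gene or list needs to be read against that value and not against 0. Of the genes called, 649 were higher and 2011 were lower by at least 1 on the log2 scale. Low genes contributed to this imbalance: 824 genes were below 1 FPKM in both libraries labelled anti-CTLA4 (576 of them called), and 204 were below 1 FPKM in both IgG libraries (106 called). These genes met the minimum only through the other group, so their direction was fixed in advance. The groups did not overlap for 77.3% of the genes, with both libraries labelled anti-CTLA4 above both IgG libraries for 23.1% and below them for 54.3%, so a lack of overlap is common here. An exact permutation test of 2 libraries against 2 cannot go below a p of 0.333, so limma's adjusted p-values are the tests given. Without IgG replicate 1 or without anti-CTLA4 replicate 2, limma called 0 genes, with 4760 and 4469 genes at an unadjusted p under 0.05. In the lists described below, where limma called 0 genes in 1 direction, 0 or 1 genes had an unadjusted p under 0.05 in that direction, except for the 3 such T and NK cell genes and the 2 iron handling genes given with their lists.

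The scale of the comparison also changed the counts. Median-of-ratios scaling, which brought the median fold change to 0, gave 2129 genes higher (17%) and 2037 lower (16.2%), or 33.2% in all. Quantile normalization gave 1919 higher (15.3%) and 2079 lower (16.6%), or 31.9% in all. Scaling to the geometric mean of 31 homeostatic microglial genes moved the median to -1.03 and gave 80 genes higher (0.637%) and 7877 lower (62.8%), or 63.4% in all. Under the first 3 scales together, 1169 genes were called higher (9.31%) and 1800 lower (14.3%). All 1800 of those called lower, and 76 of those called higher, were also called with the homeostatic scale. Values below are on the deposited scale unless the homeostatic scale is named. For abundant genes, the homeostatic scale asks whether a gene differed by more than microglial genes as a class. Since 1 FPKM was added after scaling, low genes moved less. The log2 fold change of Il12b went from 1.795 to 1.323, and that of Cd74 from 1.524 to 0.608. A call of a low gene on that scale does not answer the question.

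**Figure D2:**
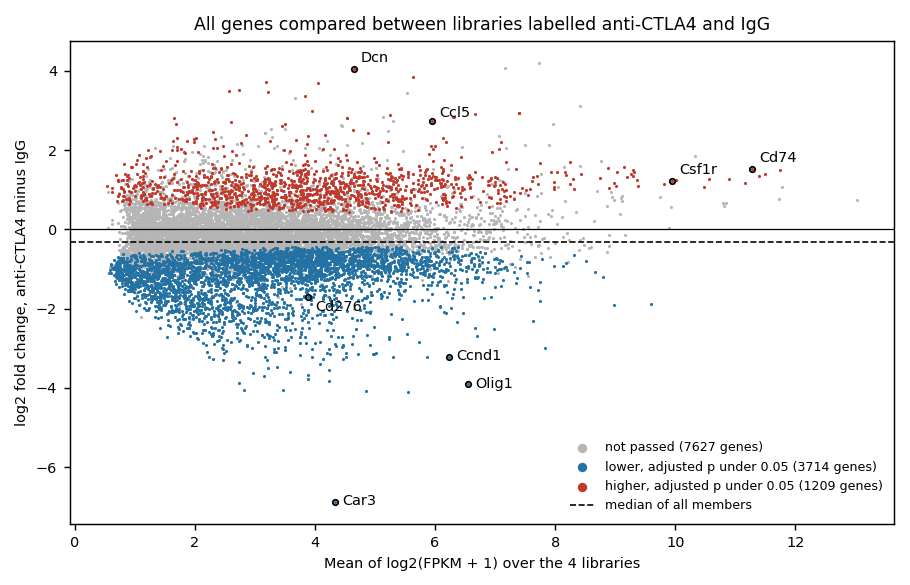
Each dot is 1 of the 12550 genes, placed by its mean log2(FPKM + 1) over the 4 libraries and its log2 fold change (anti-CTLA4 minus IgG); red genes were called higher (1209), blue genes lower (3714) and grey genes neither (7627). The dashed line is the median of -0.31, and named circles mark genes discussed in the text.

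Genes of MHC class II presentation rose. Of 13 measured, 8 were called higher and 1 lower, with a median log2 fold change of 0.86. The invariant chain Cd74, which chaperones class II molecules, was at 1101 and 1956 FPKM with IgG and at 4436 and 4018 FPKM under the anti-CTLA4 label, a 2.77-fold difference of the means (log2 fold change 1.52 ± 0.36 (SE), adjusted p = 0.0182). The alpha chain H2-Aa was at 327 and 474 FPKM and at 1035 and 961 FPKM (1.34 ± 0.27 (SE), adjusted p = 0.0125). The groups did not overlap for either gene, and IgG replicate 1 was the lowest library for both. The beta chains H2-Ab1 (1.15 ± 0.28) and H2-Eb1 (1.03 ± 0.30) rose to a like extent. Among the peptide exchange factors, the inhibitory chain H2-Oa went from 24.1 and 24.1 FPKM to 58.6 and 85.9 FPKM (1.52 ± 0.31 (SE), adjusted p = 0.0128), and H2-DMb1 from 47.99 and 56.3 FPKM to 90.3 and 101 FPKM (0.86 ± 0.15 (SE), adjusted p = 0.0108), a gene whose fold change turned to -0.04 on the homeostatic scale.

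Among the factors that drive class II transcription, 1 was called lower and Ciita did not pass. Ciita, the class II transactivator, was at 5.04 and 3.4 FPKM with IgG and at 4.15 and 4.4 FPKM under the anti-CTLA4 label (0.03 ± 0.40 (SE), adjusted p = 0.952). The libraries overlapped, and no difference could be told from the spread. Rfxap, a subunit of the RFX complex that recruits CIITA to class II promoters, fell to 7.78 and 7.82 FPKM (-0.59 ± 0.16 (SE), adjusted p = 0.0273). Both values were below both IgG libraries, as for 54.3% of all genes. With median-of-ratios scaling, limma called 0 of the 13 class II genes lower, also at an unadjusted p under 0.05. With the homeostatic scale, limma called 0 of the 13 class II genes higher, also at an unadjusted p under 0.05, and 3 lower. The fold change of Cd74 was 0.61 on that scale. With quantile normalization, 4 of the 13 were called higher and 0 lower, also at an unadjusted p under 0.05. None of these calls was among the 3 classical chains H2-Aa, H2-Ab1 and H2-Eb1, whose median was 0.57 there.

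Class II promoters carry a Y box, an inverted CCAAT element bound by NF-Y, close to the start site. The motif CTGATTGG, searched on both strands in the 250 bases before the start site, was found in 3 of the 9 class II genes with a RefSeq promoter (H2-Aa, H2-Eb1 and H2-Oa), and all 3 were called higher. It was present in 4.43% of 27025 promoters and in 6.36% of the 9538 promoters matched to genes of this comparison. No promoter entry was found for H2-Ab1, another beta chain that rose. The 150 bases before the start site are shown for the alpha chain H2-Aa and the beta chain H2-Eb1 (RefSeq, GRCm38.p6), with the Y box in capitals. They lie at chr17:34287824-34287973, minus strand, and at chr17:34305717-34305866, plus strand.
H2-Aa: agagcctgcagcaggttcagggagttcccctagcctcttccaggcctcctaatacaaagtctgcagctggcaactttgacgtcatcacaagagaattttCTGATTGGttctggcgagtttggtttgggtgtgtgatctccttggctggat
H2-Eb1: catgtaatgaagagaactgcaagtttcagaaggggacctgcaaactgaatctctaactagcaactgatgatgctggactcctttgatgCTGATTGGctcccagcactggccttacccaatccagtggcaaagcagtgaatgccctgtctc
The Y box begins 51 bases before the H2-Aa start site and 62 bases before that of H2-Eb1. A match is a description of the letters and not evidence of binding in these cells.

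In MHC class I presentation, 3 of 24 genes were called higher and 0 lower, with a median of 0.28. The share called higher over all genes was 9.63%. With median-of-ratios scaling 9 were called higher, beside 17% of all genes. The classical heavy chain H2-K1 was at 867 and 748 FPKM and at 1269 and 1103 FPKM (0.55 ± 0.35 (SE), adjusted p = 0.241), and the light chain B2m at 2746 and 2462 FPKM and at 4693 and 4097 FPKM (0.75 ± 0.36 (SE), adjusted p = 0.129). Both were above the IgG libraries in both libraries labelled anti-CTLA4, without passing the test. The nonclassical H2-T23, which presents signal peptides to NK cell receptors, rose from 161 and 171 FPKM to 398 and 367 FPKM (1.20 ± 0.21 (SE), adjusted p = 0.0105). Tapbp, the tapasin that loads class I molecules, rose from 96.9 and 95.4 FPKM to 190.3 and 199 FPKM (1.01 ± 0.18 (SE), adjusted p = 0.0105). The peptide transporter Tap1 (93.6 and 69.01 against 93.5 and 81.8 FPKM) and the immunoproteasome subunit Psmb9 (138 and 106 against 129 and 106 FPKM) overlapped between the groups. Class I genes share sequence with near-identical copies, so their single values are uncertain.

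Members of the interferon-gamma pathway differed among themselves. Of 28 genes on the interferon-gamma list, 10 were called higher and 0 lower, with a median of 0.17. The receptor chains rose, Ifngr1 by a log2 fold change of 0.92 ± 0.22 (SE), adjusted p = 0.0183, and Ifngr2 from 33.2 and 39.3 to 80.99 and 86.2 FPKM (1.19 ± 0.22 (SE), adjusted p = 0.0115). Irf1, a transcription factor that interferon-gamma induces early, was at 103 and 81.1 FPKM and at 108 and 120.0 FPKM (0.31 ± 0.42 (SE), adjusted p = 0.576). Both libraries labelled anti-CTLA4 lay slightly above IgG for Irf1, which did not pass. Of the 5 immunity-related GTPases, which act against vacuolar pathogens, limma called 0 in either direction, also at an unadjusted p under 0.05, and their median was -0.31, the median of all genes.

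Individual GTPases were among the lower values of the list. Igtp was at 246 and 153 FPKM with IgG and at 78.97 and 102 FPKM under the anti-CTLA4 label (-1.10 ± 0.73 (SE), adjusted p = 0.258). Irgm1 was at 267 and 186 FPKM and at 109 and 123 FPKM (-0.94 ± 0.66 (SE), adjusted p = 0.286). The groups did not overlap for either gene, with IgG replicate 1 the highest library, but the spread over all 7 libraries was too wide for either to pass. Of the 8 guanylate-binding proteins, 2 were called higher, among them Gbp5 (12.1 and 10.4 to 26.3 and 26.99 FPKM, 1.17 ± 0.28 (SE), adjusted p = 0.0187), while Gbp2 was at 99.8 and 78.0 and 107 and 85.7 FPKM (0.12 ± 0.64 (SE), adjusted p = 0.892).

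The chemokines that draw CXCR3-bearing T cells differed from each other. Cxcl9 rose from 4.89 and 8.36 FPKM to 29.9 and 23.1 FPKM (1.88 ± 0.54 (SE), adjusted p = 0.0311), and Cxcl11 from 0.592 and 0.602 FPKM to 2.62 and 2.49 FPKM (1.16 ± 0.19 (SE), adjusted p = 0.00995). For Cxcl11, below 1 FPKM in both IgG libraries, the direction was fixed by the minimum for genes compared. Cxcl10, with the highest level of these chemokines, was at 154 and 86.9 FPKM and at 146 and 87.5 FPKM (-0.03 ± 0.48 (SE), adjusted p = 0.962) and overlapped. Ccl5, a chemokine that draws T cells, rose from 18.4 and 28.4 FPKM to 219 and 116 FPKM, a 7.15-fold difference of the means (2.75 ± 0.48 (SE), adjusted p = 0.0106), and was called higher on the homeostatic scale as well (log2 fold change 1.84). Cd274, which encodes the checkpoint ligand PD-L1, rose from 8.6 and 9.44 FPKM to 19.2 and 15.8 FPKM (0.88 ± 0.27 (SE), adjusted p = 0.0401). Without IgG replicate 2 the median of the whole list turned to -0.06. On the homeostatic scale 1 of its 28 genes was called higher and 7 lower, beside 0.637% and 62.8% of all genes.

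Genes of the type I interferon response rose. Of 36 genes, 18 were called higher and 0 lower, and the median was 1.13. Both libraries labelled anti-CTLA4 were above both IgG libraries for 31 of them, as for 23.1% of all genes. Isg15, a ubiquitin-like modifier, was at 25.1 and 22.8 FPKM with IgG and at 67.7 and 49.02 FPKM under the anti-CTLA4 label (1.24 ± 0.31 (SE), adjusted p = 0.0221). Ifit3, which binds viral RNA together with IFIT1, went from 14.8 and 14.5 FPKM to 44.5 and 44.96 FPKM (1.54 ± 0.33 (SE), adjusted p = 0.0144). The groups did not overlap for either. Among regulators, Stat2 rose from 11.4 and 12.02 FPKM to 29.2 and 28.1 FPKM (1.22 ± 0.18 (SE), adjusted p = 0.00936) and the receptor chain Ifnar2 from 49.5 and 44.7 FPKM to 98.5 and 112 FPKM (1.14 ± 0.16 (SE), adjusted p = 0.00936), whereas Irf9, their partner, was at 42.2 and 32.2 FPKM and at 34.98 and 41.5 FPKM (0.04 ± 0.22 (SE), adjusted p = 0.883). The membrane protein Ifitm3 was at 681 and 446 FPKM and at 489 and 344 FPKM (-0.43 ± 0.29 (SE), adjusted p = 0.267). On the homeostatic scale the list median was 0.35, and limma called 0 genes higher, also at an unadjusted p under 0.05, and 2 lower.

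Many of these promoters hold an interferon-stimulated response element. The letters GAAANNGAAA were found on either strand within 250 bases before the start site in 11 of 27 type I genes with a promoter entry and in 10 of 17 interferon-gamma genes, against 3.46% of all 27025 promoters and 3.34% of those matched to the genes compared. Of the 11 type I genes with the element, 6 were called higher, and of the 10 interferon-gamma genes with it, 1 was. The 2 genes above that rose and the 2 GTPases that did not pass are shown for 150 bases before the start site (GRCm38.p6), with the element in capitals; overlapping matches are joined, and Ifit3 holds it on the opposite strand. Isg15 lies at chr4:156200819-156200968, minus strand, and Ifit3 at chr19:34583379-34583528, plus strand. Igtp lies at chr11:58199406-58199555, plus strand, and Irgm1 at chr11:48871421-48871570, minus strand.
Isg15: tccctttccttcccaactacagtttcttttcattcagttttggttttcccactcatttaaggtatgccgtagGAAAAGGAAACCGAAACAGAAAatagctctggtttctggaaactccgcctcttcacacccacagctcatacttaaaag
Ifit3: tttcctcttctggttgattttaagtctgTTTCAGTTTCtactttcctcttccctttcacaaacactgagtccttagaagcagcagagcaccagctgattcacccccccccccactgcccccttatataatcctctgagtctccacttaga
Igtp: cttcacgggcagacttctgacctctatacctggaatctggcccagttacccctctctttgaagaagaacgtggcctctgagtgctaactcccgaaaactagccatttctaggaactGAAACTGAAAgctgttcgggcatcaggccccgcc
Irgm1: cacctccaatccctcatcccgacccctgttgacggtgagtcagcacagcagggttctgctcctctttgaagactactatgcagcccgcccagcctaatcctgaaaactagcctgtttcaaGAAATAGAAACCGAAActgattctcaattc
The element begins 78 bases before the start site in Isg15, 122 in Ifit3, 34 in Igtp and 30 in Irgm1. These letters were present before genes that rose and before genes that did not pass.

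**Figure D3:**
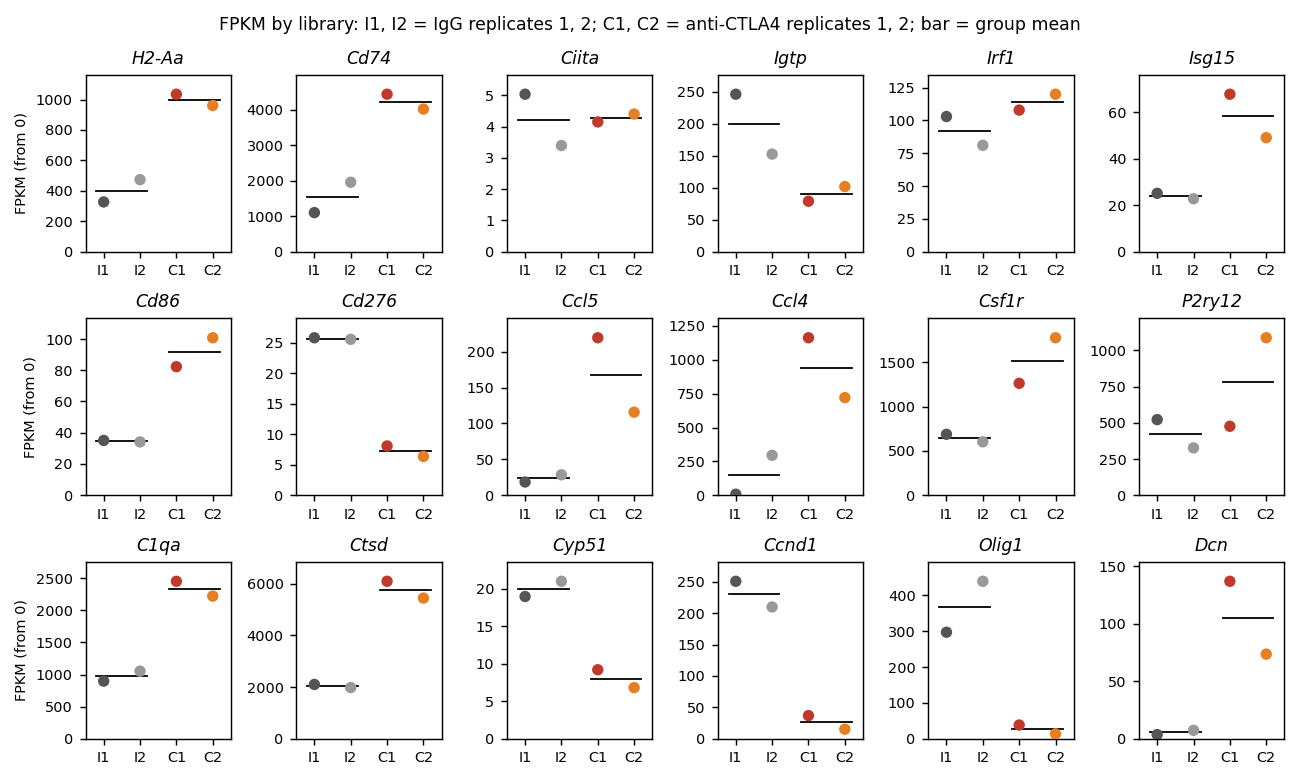
FPKM of 18 genes in each library (grey, IgG replicates; red and orange, replicates labelled anti-CTLA4), with each axis starting at 0 and black bars at the group means. H2-Aa and Cd74 lie above IgG in both libraries, Ciita and Irf1 lie close to it, Igtp lies below it, and Ccl4 differs widely between the IgG replicates (7.33 and 295 FPKM).

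Proinflammatory cytokines and NF-kB genes were higher under the anti-CTLA4 label and differed widely between the 2 control libraries. Of 25 genes, 9 were called higher and 0 lower, with a median of 1.45. On the homeostatic scale 1 was called higher and 2 lower (median 0.7), beside 0.637% and 62.8% of all genes. Il1a rose from 12.9 and 69.4 FPKM to 169 and 142 FPKM (2.31 ± 0.67 (SE), adjusted p = 0.0331), and Tnfaip3, an inhibitor that NF-kB induces, from 7.53 and 15.7 FPKM to 42.2 and 43.9 FPKM (1.88 ± 0.40 (SE), adjusted p = 0.0136). Il12b, the p40 chain of IL-12, rose from 0.266 and 0.171 FPKM to 4.45 and 2.28 FPKM (1.79 ± 0.35 (SE), adjusted p = 0.0119) and was called higher on the homeostatic scale too (1.32). Both IgG libraries were below 1 FPKM for Il12b, so its direction was fixed by the minimum for genes compared. The chemokine Ccl4 was at 7.33 and 295 FPKM with IgG and at 1163 and 721 FPKM under the anti-CTLA4 label (4.21 ± 1.49 (SE), adjusted p = 0.0596). Il1b was at 1.5 and 77.9 FPKM and at 219 and 105 FPKM (3.44 ± 1.91 (SE), adjusted p = 0.185). For both, IgG replicate 1 stood far below the other 3 libraries, and neither gene passed. Il6 was low in all 4 libraries (2.04 and 2.05 against 2.71 and 3.31 FPKM) and did not pass.

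Immediate early genes, which many stimuli switch on within minutes, were also lowest in IgG replicate 1. Of 29 immediate early and stress genes, 12 were called higher and 1 lower, with a median of 1.40. Fos was at 86.3 and 656 FPKM with IgG and at 822 and 750.1 FPKM under the anti-CTLA4 label (1.72 ± 0.78 (SE), adjusted p = 0.119). Atf3 went from 11.4 and 110.2 FPKM to 295 and 259.6 FPKM (2.90 ± 0.86 (SE), adjusted p = 0.0348), and Klf6 from 23.3 and 37.5 FPKM to 73.6 and 86.1 FPKM (1.40 ± 0.26 (SE), adjusted p = 0.0111). IgG replicate 2 lay nearer to the libraries labelled anti-CTLA4 than to IgG replicate 1 for Fos. The median difference between the IgG replicates (replicate 2 minus replicate 1) was 0.89 for this list and 0.97 for the cytokine list, against 0.02 over all genes. Without IgG replicate 1 the list medians were 0.88 and 0.95, and limma called 0 genes of either list, as over the whole table. Heat shock genes split, with Hspa1a at 31.7 and 27.6 FPKM and at 72.5 and 238 FPKM (2.12 ± 0.70 (SE), adjusted p = 0.0474) and Hsph1 falling from 50.4 and 39.7 FPKM to 15.1 and 17.97 FPKM (-1.39 ± 0.29 (SE), adjusted p = 0.0137).

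Co-stimulatory ligands rose and 1 checkpoint ligand fell. Of 18 genes, 11 were called higher and 1 lower, with a median of 1.06. On the homeostatic scale 1 was called higher and 4 lower (median 0.19), beside 0.637% and 62.8% of all genes. Cd86, a ligand of both CD28 and CTLA4, went from 35.1 and 34.1 FPKM to 82.3 and 101 FPKM, a 2.65-fold difference of the means (1.37 ± 0.16 (SE), adjusted p = 0.00936). The other ligand of that pair, Cd80, was lower in level at 1.94 and 1.99 FPKM and 3.43 and 5.42 FPKM (0.85 ± 0.39 (SE), adjusted p = 0.118). Neither gene overlapped between groups, but Cd80 did not pass. Among the SLAM family and its ligands, Cd48 rose from 28.7 and 33.6 FPKM to 94.3 and 85.7 FPKM (1.50 ± 0.24 (SE), adjusted p = 0.00967) and Slamf8 from 8.11 and 12.96 FPKM to 38.7 and 37.3 FPKM (1.79 ± 0.35 (SE), adjusted p = 0.0121), the latter also on the homeostatic scale (0.92). Cd40, the receptor through which CD4 T cells license antigen-presenting cells, rose from 0.934 and 3.65 FPKM to 8.8 and 5.52 FPKM (1.41 ± 0.47 (SE), adjusted p = 0.0495).

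The checkpoint molecules included both directions. Cd276, which encodes B7-H3, fell from 25.8 and 25.6 FPKM to 8.08 and 6.37 FPKM (-1.71 ± 0.18 (SE), adjusted p = 0.00936), and the 2 replicates of each group lay close together. Havcr2, which encodes TIM-3, rose from 32.7 and 29.6 FPKM to 47.96 and 83.0 FPKM (1.00 ± 0.25 (SE), adjusted p = 0.0208), as did its ligand Lgals9 (1.13 ± 0.24). Vsir, which encodes VISTA, was at 101 and 71.6 FPKM and at 118 and 211 FPKM (0.88 ± 0.33 (SE), adjusted p = 0.0667) and did not pass. The precursor and tumour list fell in the same libraries as Cd276 (1159 and 1825 against 281 and 99.5 summed FPKM), and its part in that fall was not tested.

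Of 14 complement genes, 11 were called higher and 0 lower, with a median of 1.29. On the homeostatic scale limma called 0 of them in either direction, also at an unadjusted p under 0.05. C1qa, a chain of the C1q recognition molecule, was at 898 and 1053 FPKM with IgG and at 2452 and 2221 FPKM under the anti-CTLA4 label (1.26 ± 0.29 (SE), adjusted p = 0.0177). The 2 libraries of each group were close and the groups lay apart. Of 28 phagocytosis and Fc receptor genes, 14 were called higher and 2 lower, with a median of 1.19, against 1 higher and 2 lower on the homeostatic scale. The activating receptor Fcgr1 rose from 29.5 and 37.7 FPKM to 96.1 and 89.2 FPKM (1.44 ± 0.30 (SE), adjusted p = 0.0128) and the shared signalling chain Fcer1g from 322 and 422 FPKM to 1049 and 816 FPKM (1.33 ± 0.39 (SE), adjusted p = 0.0352).

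Receptors for dying cells did not all move together. Mertk, which binds phosphatidylserine through bridging proteins, rose from 41.02 and 39.1 FPKM to 72.6 and 113 FPKM (1.16 ± 0.23 (SE), adjusted p = 0.0126), and its bridge Gas6 from 33.1 and 33.96 FPKM to 141 and 67.0 FPKM (1.51 ± 0.38 (SE), adjusted p = 0.0212). Axl, of the same receptor family, was at 25.6 and 32.7 FPKM and at 67.9 and 39.01 FPKM (0.81 ± 0.39 (SE), adjusted p = 0.129), and Tyro3 fell from 3.2 and 3.55 FPKM to 1.33 and 0.889 FPKM (-1.06 ± 0.28 (SE), adjusted p = 0.0241). Of 9 inhibitory receptors and ligands, 3 were called higher and 0 lower. Cd300a, an inhibitory lipid receptor, rose by 1.29 on the log2 scale. Sirpa, which reads the CD47 signal, went from 222 and 185 FPKM to 394 and 517 FPKM (1.15 ± 0.29 (SE), adjusted p = 0.0228) and Cd33, an inhibitory sialic acid receptor, from 21.5 and 22.2 FPKM to 51.4 and 68.6 FPKM (1.40 ± 0.19 (SE), adjusted p = 0.00936). Of 13 Toll-like receptor genes, 7 were called higher and 0 lower, with a median of 0.97. Tlr7, a receptor of single-stranded RNA, rose from 17.6 and 16.2 FPKM to 39.5 and 48.6 FPKM (1.32 ± 0.21 (SE), adjusted p = 0.00967), and Tlr2, a lipopeptide receptor, by 1.90 ± 0.50. Tlr3 was at 22.01 and 21.2 FPKM and at 16.9 and 22.6 FPKM (-0.13 ± 0.37 (SE), adjusted p = 0.784).

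Homeostatic microglial genes rose or did not pass. Of 31, 15 were called higher and 0 lower, with a median of 0.87. Csf1r, the growth factor receptor on which microglia depend, was at 687 and 602 FPKM with IgG and at 1262 and 1776 FPKM under the anti-CTLA4 label (1.22 ± 0.30 (SE), adjusted p = 0.0209). The purinergic receptor P2ry12 was at 522 and 327 FPKM and at 476 and 1088 FPKM (0.80 ± 0.67 (SE), adjusted p = 0.367), and Tmem119 at 467 and 368 FPKM and at 548 and 1001 FPKM (0.84 ± 0.44 (SE), adjusted p = 0.164). Csf1r was higher in both libraries labelled anti-CTLA4, whereas P2ry12 in anti-CTLA4 replicate 1 lay between the IgG replicates. The myeloid transcription factor Spi1 rose from 47.6 and 57.3 FPKM to 131 and 129.7 FPKM (1.30 ± 0.22 (SE), adjusted p = 0.0101), and Sall1, which marks microglia among macrophages, was at 25.6 and 24.98 FPKM and at 34.2 and 62.9 FPKM (0.85 ± 0.40 (SE), adjusted p = 0.13). Trem2, a lipid receptor shared by homeostatic and disease-associated cells, rose from 208 and 217 FPKM to 552 and 572 FPKM (1.40 ± 0.24 (SE), adjusted p = 0.0105).

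Disease-associated genes, which microglia raise through TREM2 around damage and lipid, varied more between replicates. Of 26, 7 were called higher and 2 lower, with a median of 1.15. Apoe was at 365 and 1246 FPKM with IgG and at 4417 and 1368 FPKM under the anti-CTLA4 label (1.86 ± 1.02 (SE), adjusted p = 0.177). Spp1, which encodes osteopontin, was at 157 and 93.3 FPKM and at 498 and 87.03 FPKM (0.78 ± 1.35 (SE), adjusted p = 0.664). Anti-CTLA4 replicate 1 was the highest library for both genes, and replicate 2 lay close to or below an IgG library. The list as a whole differed between these replicates: 0 of 26 genes were higher in replicate 2, against 29 of 31 homeostatic genes (median difference, replicate 2 minus replicate 1, -0.80 and 0.54). The phagosome protein Cd68 rose in both replicates, from 168 and 191 FPKM to 537 and 402 FPKM (1.37 ± 0.24 (SE), adjusted p = 0.0107).

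Of 10 lysosomal proteases, 9 were called higher and 0 lower, with a median of 1.38. The count was 3 with quantile normalization (median 0.83) and 0 on the homeostatic scale (median 0.46). Ctsd, an aspartic protease and 1 of the most abundant transcripts, was at 2100.0 and 1979 FPKM with IgG and at 6088 and 5439 FPKM under the anti-CTLA4 label (1.50 ± 0.38 (SE), adjusted p = 0.0226). Ctss, which degrades the invariant chain before peptide loading, was at 1496 and 2119 FPKM and at 4521 and 4926 FPKM (1.41 ± 0.38 (SE), adjusted p = 0.0262), and Lgmn, an asparaginyl endopeptidase, rose from 383 and 469 FPKM to 976 and 1053 FPKM (1.26 ± 0.23 (SE), adjusted p = 0.0111). The IgG and anti-CTLA4 libraries did not overlap for any of these. Over the whole lysosome list, 22 of 39 genes were called higher and 0 lower (median 0.78). Among the membrane and proton pump genes 3 of 12 passed, with the pump subunit Atp6v1b2 at 59.5 and 64.3 FPKM and at 67.6 and 56.8 FPKM (0.00 ± 0.16 (SE), adjusted p = 0.992). The motif CACGTG, the core of the element that TFEB-family factors bind, was found in 10 of 31 lysosomal promoters, 4 of them of genes called higher, against 6.86% of all promoters and 9.91% of those matched to the genes compared. Tfeb rose from 6.92 and 5.58 FPKM to 10.7 and 13.3 FPKM (0.84 ± 0.18 (SE), adjusted p = 0.0145). Its part in the lysosomal values was not tested.

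Cholesterol synthesis genes fell. Of 23 synthesis and uptake genes, 12 were called lower and 1 higher, with a median of -0.83. Sqle, the squalene epoxidase, was at 47.04 and 45.7 FPKM with IgG and at 16.1 and 6.53 FPKM under the anti-CTLA4 label (-2.06 ± 0.43 (SE), adjusted p = 0.0133). Cyp51, the lanosterol demethylase, fell from 18.99 and 21.02 FPKM to 9.21 and 6.83 FPKM (-1.23 ± 0.20 (SE), adjusted p = 0.00995). Both libraries labelled anti-CTLA4 were below both IgG libraries for both genes. Srebf2, the transcription factor of the pathway, fell by 1.31 on the log2 scale (24.6 and 24.2 to 11.7 and 7.21 FPKM, adjusted p = 0.011), and Ebp, a sterol isomerase, rose from 15.3 and 14.1 FPKM to 19.03 and 23.9 FPKM (0.51 ± 0.16 (SE), adjusted p = 0.0451), a fold change that turned to -0.36 on the homeostatic scale. With median-of-ratios scaling, 6 of the 23 were lower and 1 higher, beside 16.2% and 17% of all genes. The sterol exporter Abcg1 rose from 4.23 and 5.06 FPKM to 8.51 and 10.6 FPKM (0.90 ± 0.19 (SE), adjusted p = 0.0146).

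Respiratory chain genes were lower as a set of small differences. Of 43 oxidative phosphorylation genes, 25 were called lower and 0 higher, with a median of -0.70, and 42 were below both IgG libraries in both libraries labelled anti-CTLA4, as were 54.3% of all genes. The complex I subunit Ndufc1 fell from 89.4 and 93.7 FPKM to 49.9 and 34.9 FPKM (-1.11 ± 0.20 (SE), adjusted p = 0.0109), and Atp5b, of the ATP synthase, from 547 and 639 FPKM to 328 and 235 FPKM (-1.09 ± 0.27 (SE), adjusted p = 0.0209). With median-of-ratios scaling the list median was -0.33, and 5 of the 43 were called lower, beside 16.2% of all genes. The precursor and tumour list fell in the same libraries, and its part in these values was not tested. Ribosomal protein genes lay near the background, with 10 of 39 called lower, 0 higher and a median of -0.42, against 1 lower and 3 higher with median-of-ratios scaling. In glycolysis, Hk1 fell from 43.05 and 34.5 FPKM to 15.4 and 12.2 FPKM (-1.43 ± 0.27 (SE), adjusted p = 0.0115) and Hk2 rose from 11.2 and 9.74 FPKM to 17.02 and 23.1 FPKM (0.86 ± 0.19 (SE), adjusted p = 0.0158). Hk1 is the constitutive hexokinase of brain, and Hk2 the inducible form.

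Cell cycle genes fell, and most in anti-CTLA4 replicate 2. Of 45 genes, 21 were called lower and 0 higher, with a median of -0.95. The replicative helicase subunit Mcm6 was at 50.4 and 52.4 FPKM with IgG and at 22.1 and 9.83 FPKM under the anti-CTLA4 label (-1.73 ± 0.33 (SE), adjusted p = 0.0118). Ccnd1, cyclin D1, was at 251 and 209.9 FPKM and at 36.9 and 15.2 FPKM, 8.84-fold lower by the means (-3.22 ± 0.50 (SE), adjusted p = 0.00967). Anti-CTLA4 replicate 2 was the lowest library for both, and 1 of the 45 genes was higher in it than in anti-CTLA4 replicate 1. Mki67, a marker of cycling cells, was at 3.87 and 3.8 FPKM and at 3.08 and 1.55 FPKM (-0.59 ± 0.25 (SE), adjusted p = 0.0976). Without anti-CTLA4 replicate 2 the list median was -0.42 and without anti-CTLA4 replicate 1 it was -1.45. The precursor and tumour list had the same order of libraries within the antibody group (1159 and 1825 against 281 and 99.5 summed FPKM), and its part in the cell cycle values was not tested.

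**Figure D4:**
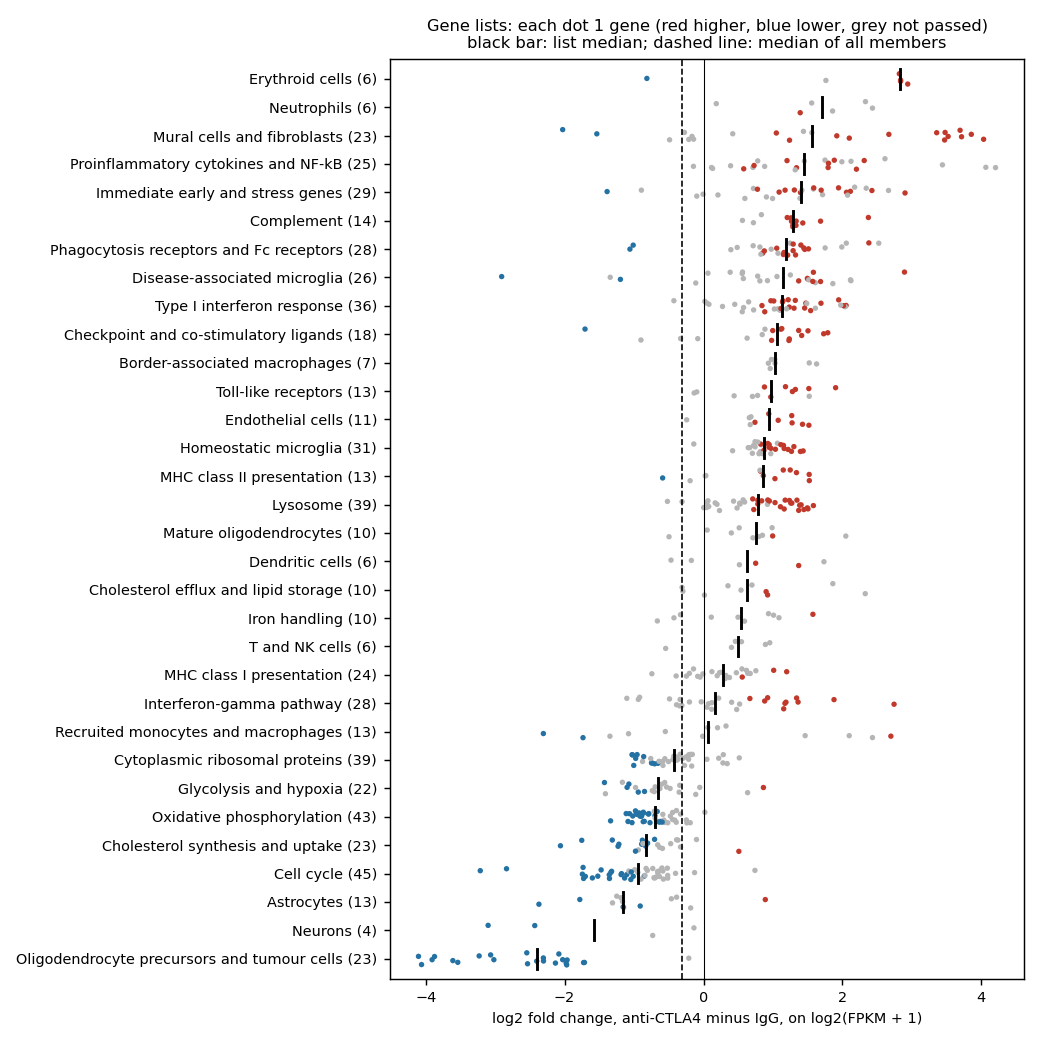
Log2 fold change (anti-CTLA4 minus IgG) of each gene in the lists with at least 4 measured genes, ordered by list median (black bar); red dots were called higher, blue dots lower and grey dots neither, and the dashed line is the median of all genes (-0.31). Medians run from -2.40 for precursor and tumour genes to 2.83 for erythroid genes, with complement (1.29) and type I interferon (1.13) genes well to the right and cell cycle genes (-0.95) to the left.

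Genes of oligodendrocyte precursors and tumour cells fell. Of 23 precursor and tumour genes, 22 were called lower and 0 higher, with a median of -2.40. Olig1, a lineage transcription factor, was at 297 and 439.6 FPKM with IgG and at 38.3 and 13.8 FPKM under the anti-CTLA4 label (-3.91 ± 0.65 (SE), adjusted p = 0.00995). The proteoglycan Cspg5 was at 170.3 and 222 FPKM and at 15.99 and 6.59 FPKM (-4.11 ± 0.67 (SE), adjusted p = 0.00995). Anti-CTLA4 replicate 2 was lowest for both, and the groups lay far apart. Car3, a carbonic anhydrase, had the largest fold change of the named genes, from 432 and 109 FPKM to 0.901 and 0.824 FPKM (-6.87 ± 1.44 (SE), adjusted p = 0.0136). The direction of Car3 was fixed by the minimum, since both libraries labelled anti-CTLA4 were below 1 FPKM. Gpr37l1, Lhfpl3, Nptx1, Cacng4, Cntn1, Nell2 and Nxph1 made up the rest of the 10 largest falls, with log2 fold changes from -3.70 to -4.08. Pdgfra, a growth factor receptor of precursors that fibroblasts also express, was the gene of the list that did not pass (3.69 and 4.23 against 4.89 and 2.1 FPKM, -0.21 ± 0.41 (SE), adjusted p = 0.702). Tubb3 and Map2, microtubule proteins of neurons, fell by 2.43 and by 3.10 on the log2 scale, while the synaptic Snap25 was at 1.4 and 1.97 FPKM and at 1.28 and 1.58 FPKM.

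The largest rises among the named genes were in genes of the extracellular matrix and vessel wall. Of 23 mural cell and fibroblast genes, 13 were called higher and 2 lower, with a median of 1.56, and 10 were also called higher on the homeostatic scale. The proteoglycan Dcn was at 3.61 and 7.33 FPKM with IgG and at 137 and 73.7 FPKM under the anti-CTLA4 label (4.04 ± 0.58 (SE), adjusted p = 0.00936). Col1a1, a fibrillar collagen, was at 0.677 and 2.8 FPKM and at 45.4 and 22.7 FPKM (3.72 ± 0.94 (SE), adjusted p = 0.0223). Both antibody-labelled libraries were far above both IgG libraries, and replicate 1 was the higher of the 2. Apod, Vtn, Lum, Aldh1a2, Col1a2 and Col3a1 rose by 3.36 to 3.86 on the log2 scale, and with Dcn and Col1a1 they made up 8 of the 10 largest rises. The other two were Nfkbid, a nuclear regulator of NF-kB (1.27 and 12.3 to 51.01 and 35.04 FPKM, 2.98 ± 0.78 (SE), adjusted p = 0.0245), and Atf3. Fn1, fibronectin, did not pass (13.9 and 21.1 against 20.1 and 9.65 FPKM), and the pericyte marker Rgs5 was at 3.65 and 2.54 FPKM and at 2.49 and 2.75 FPKM. Of 11 endothelial genes, 7 were called higher and 0 lower, all at low levels, with Cldn5 at 4.47 and 5.14 FPKM and at 18.4 and 13.2 FPKM (1.52 ± 0.34 (SE), adjusted p = 0.0154).

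Markers of blood-borne cells were low or mixed. Of 6 erythroid genes, 4 were called higher and 1 lower (1 and 0 with quantile normalization), and the beta globin Hbb-bs was at 149 and 23.4 FPKM with IgG and at 499 and 432 FPKM under the anti-CTLA4 label (2.94 ± 0.85 (SE), adjusted p = 0.0325). Near-identical globin copies share reads, so these are not independent values. Of 13 monocyte and macrophage genes, 1 was called higher and 2 lower, with Ly6i rising from 0.949 and 1.92 FPKM to 19.1 and 10.9 FPKM (2.70 ± 0.46 (SE), adjusted p = 0.0102) and the chemokine receptor Ccr2 at 1.02 and 2.24 FPKM and 2.05 and 1.11 FPKM. The shares over all genes were 9.63% called higher and 29.6% called lower. The monocyte list summed to 276 and 354 against 212 and 113 FPKM. Of 7 border-associated macrophage genes and 6 T and NK cell genes, limma called 0, with 1 and 3 higher at an unadjusted p under 0.05 and medians of 1.03 and 0.50. With median-of-ratios scaling and with quantile normalization alike, 5 of the 6 T and NK cell genes were called higher. The mannose receptor Mrc1 was at 1.3 and 3.63 FPKM and at 8.98 and 3.05 FPKM (0.96 ± 0.68 (SE), adjusted p = 0.288), and Cd3e, a T cell receptor subunit, was at 0.307 and 0.317 FPKM and at 1.06 and 0.575 FPKM. The neutrophil granule gene S100a8 was at 3.33 and 3.38 FPKM and at 13.5 and 32.3 FPKM (2.33 ± 1.49 (SE), adjusted p = 0.241). The T and NK cell list, of which 6 of 20 genes reached the minimum, summed to 13.7 and 9.59 against 17.8 and 29.2 FPKM.

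Precursor and tumour genes had the lowest median under each of the 4 scales, from -3.11 to -2.09. The median-of-ratios and homeostatic scales divide each library by a single factor and move abundant genes alike. The order of the lists on those scales was thus largely set by the deposited values. Medians of the complement (0.40 to 1.65), type I interferon (0.35 to 1.42) and phagocytosis (0.31 to 1.55) lists stayed above 0 under each, although their homeostatic counts of genes called higher were 0, 0 and 1. On that scale the mural and fibroblast list had 10 genes called higher and the erythroid list 4, and no other list had more than 1. The medians of the lysosome list (-0.10 to 1.15), the class I list (-0.59 to 0.65) and the interferon-gamma list (-0.70 to 0.54) were below 0 on the homeostatic scale and above it on the other 3. On the homeostatic scale the homeostatic list had a median of -0.04 by construction. There 42 of 43 oxidative phosphorylation genes and 42 of 45 cell cycle genes were called lower, beside 62.8% of all genes.

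**Figure D5:**
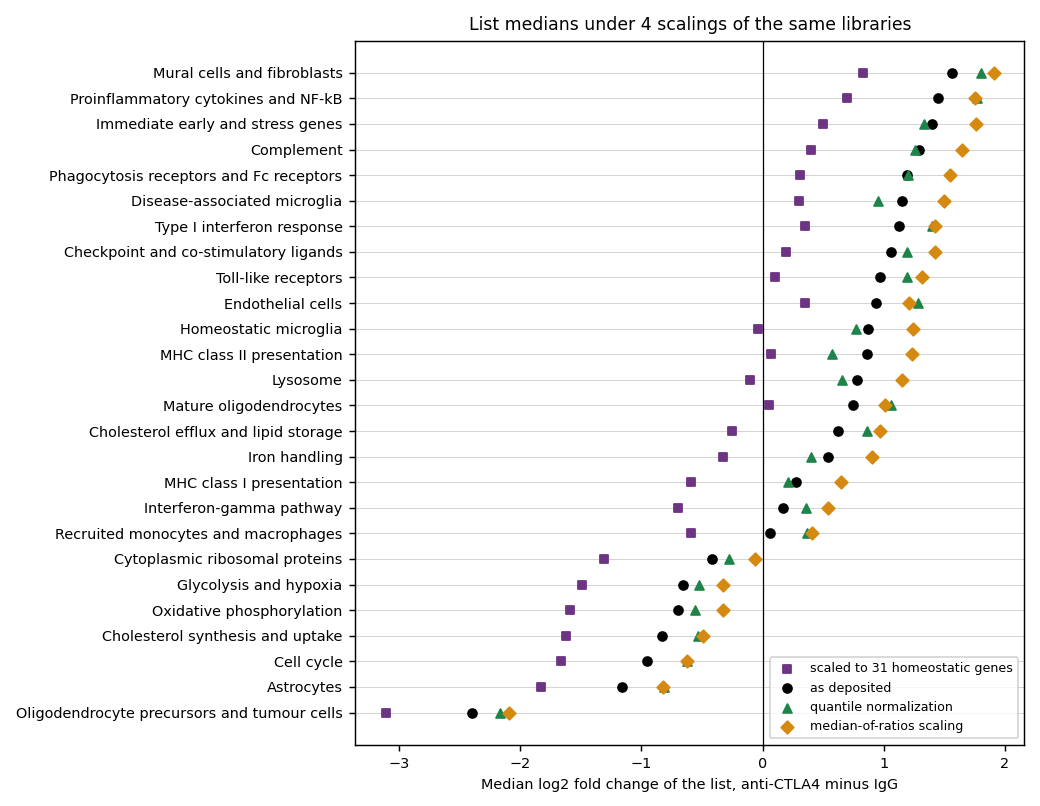
Median log2 fold change of each list with at least 10 measured genes under 4 scales of the same libraries: as deposited (black circles), median-of-ratios (orange diamonds), quantile (green triangles) and the geometric mean of 31 homeostatic genes (purple squares). The homeostatic scale shifts each list to the left, so that class II genes fall from 0.86 to 0.07 and mural and fibroblast genes from 1.56 to 0.83.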

How the data were processed

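The labels' protocols describe sorted microglia, RNA extraction with Trizol followed by a column, cDNA from an ultra-low-input kit and sequencing by HiSeq2500. STAR, HOMER, DESeq2 and the build mm10 are listed in the submitters' processing notes; their versions are not given in the sources used here. The authors' deposited FPKM values were made with HOMER, per the file headers, which counted exon reads of both strands and kept 1 entry per gene, so antisense or overlapping genes cannot be told apart, and members of multigene families can share reads. Over transcripts of 200 to 800 nucleotides and up to 20 reads, 100% of low values lay within 0.1 of a whole read, which gives the implied depth. FPKM are not counts, and no count test was run.

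A minimum of 1 FPKM in 2 or more of all 7 libraries left 13028 genes, which were fitted as log2(FPKM + 1) with limma 3.58.1 (R 4.3.3), with a mean-variance trend and 1 spread shared by 3 groups. Tests were two-sided with Benjamini-Hochberg adjustment over all genes tested. Fold changes understate those of low genes. Results were counted over the 12550 genes compared. Lists are described by counts and medians, with no test of their own. The libraries compared share replicate numbers, but no label says that a number marks 1 animal, and the deviations of IgG replicate 1 and anti-CTLA4 replicate 1 from their group means had a correlation of -0.125, so no block was used.

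The genes compared, the 34 lists and the alternatives were chosen with earlier results of these data known. Named genes are, per direction, the 10 with the largest fold change among those called under the deposited, median-of-ratios and quantile scales, without overlap and with a mean of at least 5 FPKM, leaving out predicted genes, cDNA clones and small RNAs. A fixed panel of genes from the lists and up to 2 genes with the smallest p per list were added; some of these genes are not reported here. Promoters are from RefSeq (GRCm38.p6). The fit was tested on simulated data before use.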

Additional observations from a re-analysis of the deposited data

How the results depend on the processing

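With 2 libraries in each compared group, the calls depended on single libraries. Leaving out each library in turn gave between 0 and 1636 members called higher and between 0 and 4372 called lower, against 1209 and 3714 with all libraries. Both counts were 0 without anti-CTLA4 replicate 2 (limma, smallest adjusted p 0.0668, with 1108 higher and 3361 lower at an unadjusted p under 0.05) and without IgG replicate 1 (smallest adjusted p 0.0576, 1229 and 3531). They were 235 and 434 without IgG replicate 2, and 829 and 2786 without anti-CTLA4 replicate 1. In these 4 fits 1 arm held a single library, which was assumed to vary like the other groups. Where the groups do not overlap, as for 77.3% of all genes, no such fit can change the sign of a gene. The 101 called genes named in the text lost their calls in the first 2 of these fits, and the signs of all called members were kept in each.

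The scaling moved the split of directions. Median-of-ratios scaling gave 2129 higher and 2037 lower, quantile normalization 1919 and 2079, and scaling to the homeostatic genes 80 and 7877. On the homeostatic scale the log2 differences of 18 of 138 named genes changed sign. Of these, 2 had been called, Ebp (to -0.36) and H2-DMb1 (to -0.04), and Irf9 was called lower there (-0.84). The homeostatic scale divided IgG replicates 1 and 2 by 0.875 and 0.7601. It divided anti-CTLA4 replicates 1 and 2 by 1.274 and 1.859. That division lowers the fold change of each abundant gene by a like amount. Pseudocounts of 0.1 and 5, the mean filter, the 4 libraries alone and a fit without a trend stayed within 1.5 times of both counts, as did 851 higher and 2820 lower with no filter.

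The replicate number as a block gave 597 higher and 2062 lower, and 29 named genes lost their calls. No label says that equal numbers share an animal, and the pair numbered 1 had a correlation of deviations of -0.125. The crossed pairing, chosen after seeing the data, gave 739 higher and 2792 lower. Depth was only implied by the low FPKM values, so no counting interval is given.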

Other observations

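Of the 76 genes called higher under all 4 scales, 17 were on a list and 10 of those on the mural and fibroblast list, and 32 had a mean of at least 5 FPKM over the 4 libraries. Many of the 76 were below 1 FPKM in both IgG libraries, so a rise was a condition of their entry. The following were chosen among the 76 after their values were seen and are given as a description. Several act in signalling of immune cells. Il10ra, the ligand-binding chain of the IL-10 receptor, was at 44.04 and 45.1 FPKM with IgG and at 127 and 204 FPKM under the anti-CTLA4 label (log2 fold change 1.83 ± 0.26 (SE), adjusted p = 0.00936, and 0.92 on the homeostatic scale). Il27, a cytokine subunit made by antigen-presenting cells, was at 0.389 and 0.493 FPKM and at 6.28 and 5.28 FPKM (2.23 ± 0.20 (SE), adjusted p = 0.00936). For both genes the groups did not overlap, and the IgG replicates lay closer together than the replicates labelled anti-CTLA4. For Il27, below 1 FPKM in both IgG libraries, the direction and the lack of overlap were fixed by the minimum.

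Uba7, the activating enzyme for ISG15 conjugation, was at 10.2 and 13.2 FPKM and at 37.1 and 46.6 FPKM (1.75 ± 0.20 (SE), adjusted p = 0.00936). Cyp27a1, a sterol hydroxylase, was at 4.01 and 6.33 FPKM and at 21.1 and 24.6 FPKM (1.97 ± 0.25 (SE), adjusted p = 0.00936). Cd36, a scavenger receptor for lipids, was at 0.672 and 4.93 FPKM and at 17.4 and 13.6 FPKM (2.38 ± 0.53 (SE), adjusted p = 0.016). Both libraries labelled anti-CTLA4 were above both IgG libraries for each, with IgG replicate 1 the lowest.

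Genes of iron handling had 1 of 10 called higher and 0 lower (limma; 4 and 2 at an unadjusted p under 0.05), with Slc11a1, a phagosomal metal transporter, at 35.3 and 41.98 FPKM with IgG and at 109.7 and 124 FPKM under the anti-CTLA4 label (1.58 ± 0.26 (SE), adjusted p = 0.0101). The iron share called higher was near the 9.63% of all genes, of which 29.6% were called lower. Of 13 astrocyte genes, 4 were called lower and 1 higher, with a median of -1.16, a share near the 29.6% of all genes called lower. With quantile normalization 2 were called lower. Sox9, a glial transcription factor, was at 45.7 and 39.8 FPKM and at 9.95 and 5.5 FPKM (-2.37 ± 0.42 (SE), adjusted p = 0.0106). Of 10 genes of mature oligodendrocytes, 1 was called higher and 0 lower in limma, with 3 higher and 0 lower at an unadjusted p under 0.05, and Mbp, a myelin protein, was at 30.7 and 8.7 FPKM and at 43.5 and 21.4 FPKM (0.85 ± 0.63 (SE), adjusted p = 0.307). The share of these genes called higher was again near the 9.63% of all genes.

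Of 10 cholesterol efflux and lipid storage genes, 2 were called higher and 0 lower in limma (4 and 0 at an unadjusted p under 0.05), with a median of 0.62. Of 22 glycolysis and hypoxia genes, 1 was called higher and 5 lower, with a median of -0.66. Over all genes, 9.63% were called higher and 29.6% lower. Of 6 dendritic cell genes, 2 were called higher and 0 lower (3 and 1 at an unadjusted p under 0.05). Ccr7, the receptor for migration to lymph nodes, was at 0.678 and 1.25 FPKM with IgG and at 8.05 and 3.62 FPKM under the anti-CTLA4 label (1.74 ± 0.65 (SE), adjusted p = 0.0686), higher in both libraries without passing. Of 6 neutrophil genes, 1 was called higher and 0 lower (3 and 0 at an unadjusted p under 0.05), namely Csf3r, a growth factor receptor (26.7 and 29.2 to 63.1 and 88.9 FPKM, 1.39 ± 0.19 (SE), adjusted p = 0.00936). The 1 B cell gene measured, Cd79b, a B cell receptor chain that microglia also express, rose from 6.97 and 8.11 FPKM to 19.5 and 21.3 FPKM (1.33 ± 0.16 (SE), adjusted p = 0.00936). Of 4 neuronal genes, 2 were called lower and 0 higher. Xist and the Y-linked genes were all low in the 4 libraries, with Xist at 2.16 and 2.48 and at 3.85 and 6.08 FPKM and the 4 Y-linked genes below the minimum.

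A pair of further promoter motifs was searched on both strands. The sterol element TCACNCCAC was found in 1 of 16 promoters of the cholesterol synthesis list, that of Hmgcs1, against 1.22% of all promoters and 1.28% of those matched to the genes compared. The E2F motif TTTGGCGC was found in 3 of 36 cell cycle promoters, those of Mcm5, Mcm6 and Pola1, all called lower, against 0.485% and 0.954%.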
